A study of Mus musculus with 52 samples.

Results

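Among 29 female frontal cortex libraries from mice with amyloid, 11 held almost no reads of Csl, a retrocopy of the citrate synthase gene Cs, and 18 held the level also seen in males. The sets were separated by Csl alone, at less than 2 CPM (a gene's reads scaled to the total counted reads of its library) for the low-Csl set and at 5 CPM or more for the high-Csl set, within gender F. No female library lay between the thresholds, so the 11 and 18 make up all 29 females of the 52 libraries in the series. The closest values on each side were 1.13 CPM in the low-Csl set and 13.6 CPM in the high-Csl set. These sets are not groups of the study: they were defined from the measured reads.

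Each library came from 1 animal of the APP/PS1ΔE9 line, which carries amyloid-driving transgenes, with human APOE3 (APP/E3) or APOE4 (APP/E4) in place of mouse Apoe on both alleles. In the high-fat diet (HFD) 40% of calories were fat, 42.6% carbohydrate and 16.8% protein, and the normal diet (ND) was a standard chow. The diets were given for 3 months to mice that averaged 3.5 months at the outset, and behavioural testing came at 14.7 months on average. The low-Csl set held 5 of 8 APP/E3 HFD, 2 of 7 APP/E3 ND, 2 of 7 APP/E4 HFD and 2 of 7 APP/E4 ND females, and the high-Csl set held the other 3, 5, 5 and 5. All 23 males (6 APP/E3 HFD, 6 APP/E3 ND, 5 APP/E4 HFD and 6 APP/E4 ND) are given beside them as values. The transgenes, the APOE replacement and the perfusion before dissection were common to every group.

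A retrocopy arises when the processed messenger RNA of a gene is copied back into DNA and inserted elsewhere in the genome. It lacks the introns of its parent gene, and most retrocopies decay into processed pseudogenes, while some keep an open reading frame and a promoter. Ribosomal protein, glycolytic and cytoskeletal genes have many such copies in mouse. A short read from the spliced parent can match a retrocopy as well as the parent, so counts of the copies depend on how reads that match more than 1 place are assigned.

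The following stretches show how close some of the retrocopies that followed the split are to the coding sequence of their parents. Each is 120 bases, written 5′ to 3′, from GENCODE M21 transcripts on build GRCm38, and capitals mark bases at which a retrocopy and its parent differ. Over their full alignments Csl is 91.9% identical to Cs, Aldoart2 89.5% and Aldoart1 92.7% identical to the aldolase gene Aldoa, and Gm6788 96.7% identical to the dynein light chain gene Dynll1. Within these stretches Csl (chr10:99758013-99758132, minus strand) differs from exon 10 of Cs (chr10:128359993-128360112, plus strand) at 4 bases.
Csl: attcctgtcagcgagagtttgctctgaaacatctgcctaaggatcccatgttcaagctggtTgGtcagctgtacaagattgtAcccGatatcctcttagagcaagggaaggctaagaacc
Cs: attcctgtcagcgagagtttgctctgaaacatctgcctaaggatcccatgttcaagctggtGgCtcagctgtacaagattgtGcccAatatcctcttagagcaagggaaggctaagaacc
Aldoart2 (chr12:55565292-55565411, plus strand) differs at 7 bases and Aldoart1 (chr4:72852285-72852404, minus strand) at 11 bases from a stretch of exons 3 and 4 of Aldoa (chr7:126797541-126797755, minus strand).
Aldoart2: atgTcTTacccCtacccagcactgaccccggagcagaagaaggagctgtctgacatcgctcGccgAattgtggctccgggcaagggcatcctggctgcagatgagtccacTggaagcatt
Aldoart1: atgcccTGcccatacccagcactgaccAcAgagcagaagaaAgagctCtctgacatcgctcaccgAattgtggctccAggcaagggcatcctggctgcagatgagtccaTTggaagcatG
Aldoa: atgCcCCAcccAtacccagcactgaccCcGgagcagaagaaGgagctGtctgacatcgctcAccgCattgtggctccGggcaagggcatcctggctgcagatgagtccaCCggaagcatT
Gm6788 (chr19:28763164-28763283, minus strand) differs at 4 bases from exon 3 of Dynll1 (chr5:115298699-115298818, minus strand).
Gm6788: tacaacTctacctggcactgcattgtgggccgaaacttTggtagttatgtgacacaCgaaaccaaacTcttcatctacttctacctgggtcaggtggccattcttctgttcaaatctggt
Dynll1: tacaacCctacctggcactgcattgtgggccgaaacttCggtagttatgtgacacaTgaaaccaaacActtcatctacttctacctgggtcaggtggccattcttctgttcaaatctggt
The longest run without a difference was 92 bases for Csl, 49 for Aldoart2, 86 for Aldoart1 and 55 for Gm6788.

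Csl was counted at 0.0944 to 1.13 CPM in the low-Csl libraries (median 0.212, 1 to 13 reads each), 13.6 to 18.05 CPM in the high-Csl libraries (median 15.1) and 11.3 to 17.01 CPM in males (median 14.3). This gap made the sets and is a description, not a test. Aldoart2, a retrocopy of the aldolase gene Aldoa expressed in testis, was at 0.297 to 1.66 CPM in the low-Csl set, 26.6 to 40.4 CPM in the high-Csl set and 25.0 to 36.7 CPM in males. Rps10, which encodes a protein of the small ribosomal subunit, ran the other way, at 18.1 to 25.0 CPM in the low-Csl set, 1.89 to 3.98 CPM in the high-Csl set and 1.48 to 5.97 CPM in males. Aldoart2 and Rps10 were known to follow the split when it was proposed, so they too are given without a test. For none of the 3 genes did the low-Csl libraries overlap with any other library.

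**Figure D1:**
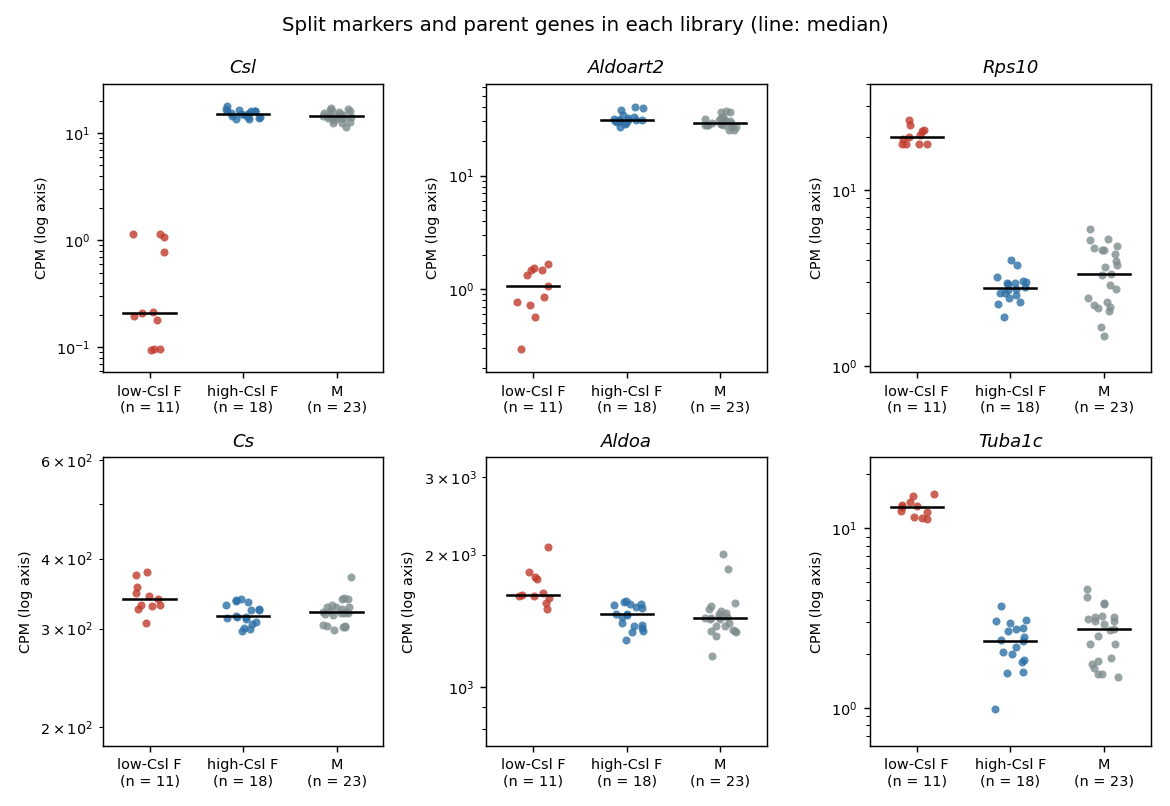
Level in CPM on a log axis of Csl, Aldoart2 and Rps10 (top) and of the parent genes Cs, Aldoa and Tuba1c (bottom), with 1 point per library and a line at the median, in 11 low-Csl females, 18 high-Csl females and 23 males. The 11 low-Csl libraries stand apart in the top row and in Tuba1c and overlap with the others in Cs and Aldoa.

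Total counts were 9.39 to 12.2 M reads in low-Csl libraries (median 10.6 M), 7.02 to 9.63 M in high-Csl libraries (median 8.07 M) and 5.34 to 39.4 M in males, so that 3 reads correspond to 0.246 to 0.319, 0.311 to 0.427 and 0.0762 to 0.561 CPM. Values under this floor are not told apart from 0, and the floor covers counting error only. Depth thus moved with the split, and its part in the results was not tested. The labels name no sequencing run, date or read length, so no batch term could be fitted. Xist was at 502 to 909 CPM in the low-Csl set and 461 to 1126 CPM in the high-Csl set, and the cortical glutamate transporter gene Slc17a7 at 1168 to 1696 and 992 to 1862.4 CPM.

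To ask which other genes followed the split, the low-Csl and high-Csl females were compared with edgeR's quasi-likelihood test, with a mean for each combination of genotype and diet, over 14583 genes. At a Benjamini-Hochberg adjusted p under 0.05 the test called 3070 genes (21.1%), of which 1509 (10.3%) were higher and 1561 (10.7%) lower in the low-Csl set. Most differences were small, with a median absolute log2 difference of 0.33 among called genes, but the large ones were mostly losses: 42 genes were called above a log2 difference of 1 and 287 below -1. The low-Csl and high-Csl libraries did not overlap at all in 240 genes (1.65%), 104 of them higher (0.713%) and 136 lower (0.933%) in the low-Csl set. With the levels of striatal, olfactory and choroid plexus genes as covariates the test called 959 genes, of which 755 were among the 3070. Of the 240 genes, which were picked for their separation by the split, 239 were called in the same direction. In APP/E3, APP/E4, HFD and ND females alone the test called 1724, 651, 1662 and 771 genes. Of all genes tested there, 850 of 14193, 326 of 14197, 865 of 14180 and 395 of 14238 were called lower. Counts of lists in these subsets are to be read against these shares.

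**Figure D2:**
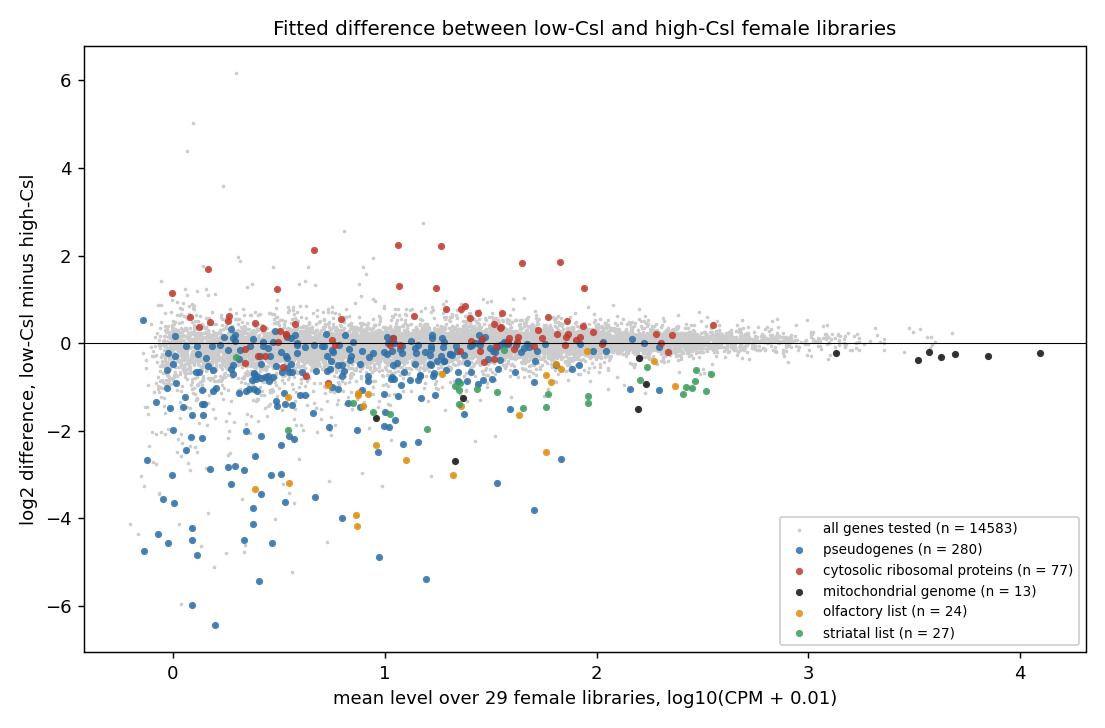
Fitted log2 difference, low-Csl minus high-Csl, against the mean level over the 29 female libraries as log10 of CPM plus 0.01, for the 14583 genes tested, with pseudogenes and 4 gene lists in colour. Pseudogenes reach down to -6.42, cytosolic ribosomal protein genes lie up to 2.24 above zero, and the mitochondrial, olfactory and striatal lists lie below it.

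Pseudogenes were counted less in the low-Csl libraries. Of 280 genes that RefSeq annotates as pseudogenes, 180 (64.3%) were called lower and 1 higher, with a median log2 difference of -0.58, against 1381 lower (9.66%) and 1508 higher (10.5%) and a median of 0.00 among the 14303 other genes. In 86 of the 280 every low-Csl library lay below every high-Csl library, and in 0 every one lay above. By RefSeq type, 133 of 185 plain pseudogenes (71.9%) and 47 of 95 transcribed pseudogenes (49.5%) were called lower, and the difference between the types was not tested. In APP/E3, APP/E4, HFD and ND females alone 139 of 258, 129 of 267, 142 of 259 and 128 of 269 pseudogenes were called lower. Of all genes 850 of 14193, 326 of 14197, 865 of 14180 and 395 of 14238 were called lower in those fits.

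Called genes were ranked if their sets did not overlap and the higher set had a mean of at least 5 CPM. Genes with overlapping sets, such as the olfactory genes Omp and Eomes given below, were not ranked, however large their difference. The largest loss in this ranking was that of Gm6788, a processed copy of Dynll1. Gm6788 was at 0.378 to 1.07 CPM in low-Csl libraries (median 0.481) and 20.4 to 30.5 CPM in high-Csl libraries (median 24.1). Its log2 difference was -5.38 ± 0.12 (SE, adjusted p = 2.22e-24, edgeR), while Dynll1, a light chain of the dynein motor, was at 133 to 230 and 130 to 173 CPM and did not pass (0.09 ± 0.06, adjusted p = 0.300). Gm10154, a copy of the ribosomal protein gene Rpl34, was at 0.0944 to 0.857 CPM in low-Csl libraries and 8.69 to 18.9 CPM in high-Csl libraries (-4.89 ± 0.19). Gm12070, which differs from the glycolytic gene Gapdh at 1 base of 1002 aligned, was at 3.27 to 7.502 CPM and 69.2 to 88.5 CPM (-3.81 ± 0.09). Gapdh itself was counted at 1.28 to 3.27 CPM in the low-Csl set and 1.59 to 3.98 CPM in the high-Csl set and was also called lower (-0.63 ± 0.15). The ranking required sets without overlap, so the separation of these copies is no separate result. Their parents were not chosen by that rule.

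Gm11942 (a copy of Rplp1, -3.99), Gm15710 (Rpl13, -3.62), Gm10193 (Zfp706, -3.51), Rpl32l (Rpl32, -3.25) and Gm15946 (Mrps18c, -3.65) were lower in the same way, with low-Csl means of 0.413 to 1.57 CPM and high-Csl means of 5.19 to 14.7 CPM. Of their parents, Rplp1 (0.01) and Rpl13 (-0.05) did not pass, and Zfp706 (0.12), Rpl32 (0.20) and Mrps18c (0.78, without overlap) were called higher. Beside Gm6682, given below, the others among the 12 largest losses without overlap were 1700047I17Rik2 (-5.23), 0610010B08Rik (-3.04) and Gm3552 (-3.140). The first 2 are coding genes of several exons, and for Gm3552 no transcript was matched. A copy of Rpl35a, Gm10029, had 2 reads over all 11 low-Csl libraries and 366 reads over the 18 high-Csl libraries, and was named after its values were seen.

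Gm6682, a retrocopy, and its parent Tuba1c moved in opposite directions. Gm6682 was at 3.27 to 9.83 CPM in low-Csl libraries (median 4.47), 43.9 to 56.4 CPM in high-Csl libraries (median 53.3) and 39.8 to 61.8 CPM in males. Tuba1c, an alpha-tubulin of microtubules, was at 11.3 to 15.5 CPM in low-Csl libraries (median 13.1), 0.986 to 3.70 CPM in high-Csl libraries (median 2.37) and 1.497 to 4.58 CPM in males. The log2 differences were -3.19 ± 0.10 for Gm6682 and 2.55 ± 0.11 for Tuba1c, and neither gene had overlapping sets. Gm14173 and its parent Rpl37a, a protein of the large ribosomal subunit, also moved in opposite directions, at 0.579 ± 0.262 against 4.83 ± 0.986 CPM for the copy and 22.6 ± 2.83 against 4.75 ± 0.731 CPM for the parent (low-Csl against high-Csl, SD, n = 11 and 18).

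Alignment of pseudogenes and genes with 1 exon to coding transcripts with several exons, added after the data had been seen, gave 288 retrocopies with a parent at 80% identity or more over at least 50% of the copy, Csl and Aldoart2 left out. Of these, 185 (64.2%) were called lower and 3 (1.04%) higher in the low-Csl set, with a median log2 difference of -0.55. Among all genes 10.7% were called lower and 10.3% higher. Of the 233 parents that were tested, 97 (41.6%) were called higher, with a median of 0.11. The 27 parents called lower (11.6%) are near the share of all genes. Where the copy was called lower and its parent was tested, the parent was called higher in 89 of 181 pairs and lower in 15 (8.29%). In these pairs a parent counts once for each of its copies, and Rps10 was not excluded as a parent. The 3 copies called higher were Gm6030 (Rps24), Gm7083 (Srsf3) and Gm6109 (Rpl30), each under 5 CPM in the low-Csl set. In all 3 every low-Csl library lay above every high-Csl library.

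By the medians of bins, the copies closest to their parents did not have the largest differences. Single close copies such as Gm12070 were far lower, and 31 of the 134 above 99% identity were lower without overlap. The median log2 difference was -0.44 for the 44 copies at 80 to 95% identity, -1.24 for the 59 at 95 to 98%, -0.77 for the 51 at 98 to 99% and -0.29 for the 134 above 99%. By the longest identical run it was -0.97 in the 31 copies with the shortest runs, and -0.91, -0.76, -0.36 and -0.19 in the 18, 94, 85 and 60 copies of the bins of longer runs that follow. These medians are descriptions of bins, and copies of 1 parent share its sequence.

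**Figure D3:**
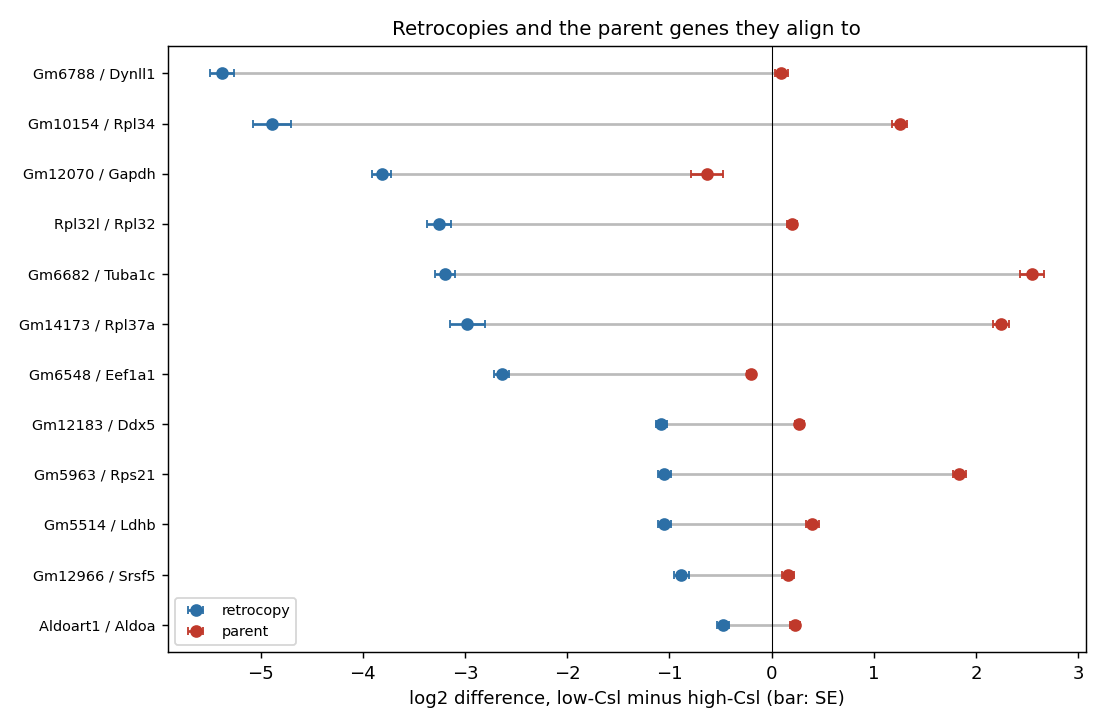
Log2 difference, low-Csl minus high-Csl, with its SE for 12 retrocopies (blue) and the parent genes they align to (red), 1 pair per row. Every copy shown lies below 0, and the parents lie between -0.63 for Gapdh and 2.55 for Tuba1c. The 12 pairs were picked by hand and hold none of the copies called higher, so their common direction is no separate result.

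Gene pairs listed by name as retrocopy and parent were also compared. The list can hold related genes that are not retrocopies, such as Cox7a2l. Of its 64 pairs, 20 copies besides Csl and Aldoart2 were tested. Among the 20, 9 were called lower and 1 higher, with a median of -0.10, against 10.7% and 10.3% of all genes. Called lower were Ppp1r2-ps3 (-3.75), Tubb2a-ps2 (-0.75), Mkrn3 (-0.73), G6pd2 (-0.49), Aldoart1 (-0.48), Rps27rt (-0.35), Eno1b (-0.27), Oaz1-ps (-0.19) and Cox7a2l (-0.13), and Rpl36al was higher (0.17). Aldoart1, expressed in testis, was at 73.5 to 105 CPM in low-Csl libraries and 99.3 to 138 CPM in high-Csl libraries, while its parent Aldoa, which cleaves fructose bisphosphate in glycolysis, was at 1502 to 2081 and 1279 to 1565 CPM (0.23 ± 0.05, adjusted p = 0.000800). Cs, the first enzyme of the citrate cycle, was slightly higher at 342 ± 21.1 CPM in low-Csl libraries, against 319 ± 13.4 CPM in high-Csl libraries (0.11 ± 0.03, adjusted p = 0.0208). The retrogenes Cstf2t (0.004), a cleavage stimulation factor, Zrsr1 (0.08), a splicing factor, and Mcts2 (0.04), a translation factor, did not pass.

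Calls varied with the sequence a gene shares with others. For each gene the share of 50-base stretches that also occur in an annotated transcript of another gene was computed, a measure chosen after the data had been seen. Among 10028 genes with no shared stretch, 765 (7.63%) were called higher and 964 (9.61%) lower in the low-Csl set, and 6 had sets that do not overlap. Of genes sharing 5 to 20% of their stretches, 236 of 789 (29.9%) were called higher and 76 (9.63%) lower. Above 80%, 8 of 184 (4.35%) were called higher and 83 (45.1%) lower. In coding genes with 2 or more exons, 7.77% of those with no shared stretch were called higher and 9.47% lower, against 33.0% and 7.26% of those sharing 5 to 20% and 10.7% and 30.7% of those sharing over 80%. Of the 240 genes without overlap, 224 shared a stretch with another gene and 10 had no matched transcript.

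**Figure D4:**
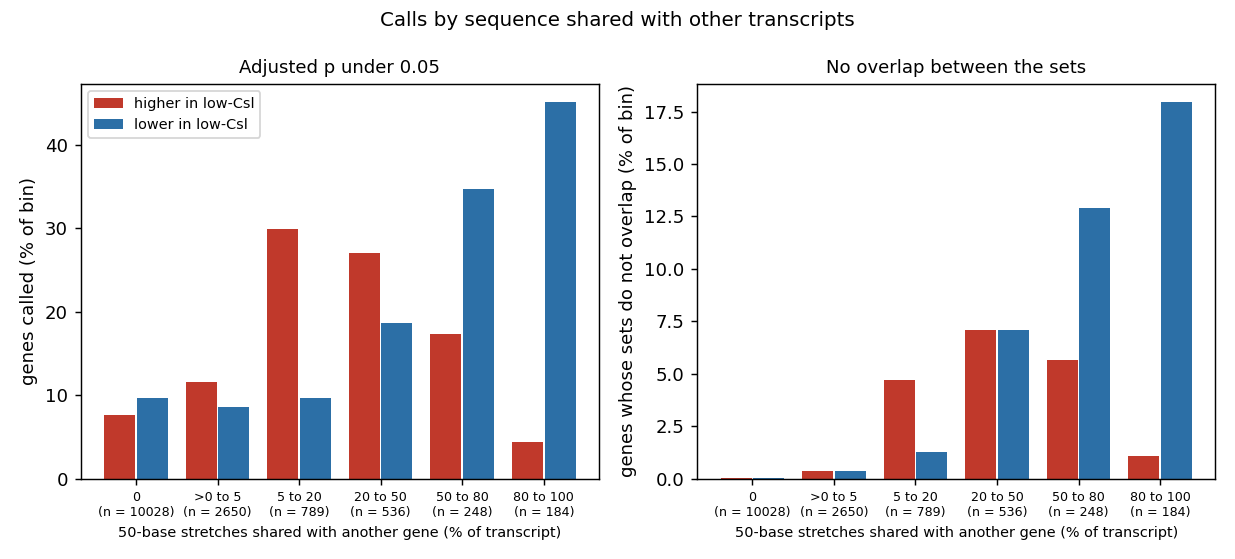
Share of genes called (left) and share with no overlap between the sets (right), higher (red) or lower (blue) in low-Csl libraries, by the percentage of 50-base stretches shared with another gene, with the number of genes per bin. Calls higher in the low-Csl set peak at 29.9% of the 5 to 20% bin, and calls lower reach 45.1% of the 80 to 100% bin.

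The 6 genes without overlap and without a shared stretch were Gas5, Ube2s, Mir703, Cdkn2d, Map3k1 and Gm5590, named after their values were seen. Gas5, a noncoding RNA whose introns carry small nucleolar RNAs, was at 60.2 to 80.4 CPM in low-Csl libraries and 22.9 to 46.3 CPM in high-Csl libraries (1.02 ± 0.06, adjusted p = 1.02e-13). Ube2s, a ubiquitin-conjugating enzyme of mitosis, was higher as well (0.76), and the cell cycle inhibitor gene Cdkn2d (-1.31), Mir703 (-1.38), Map3k1 (-1.01) and Gm5590 (-4.48) were lower.

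Of 77 ribosomal protein genes of the cytosol, 40 were called higher in the low-Csl set and 8 lower, with a median of 0.21. Among all genes 10.3% were called higher and 10.7% lower, so the 8 are near the share of all genes. In 19 of the 77 the low-Csl libraries lay above every high-Csl library, against 0.713% of all genes. Rpl37 was at 33.1 to 42.2 CPM in low-Csl libraries and 5.94 to 10.1 CPM in high-Csl libraries (2.22 ± 0.07, adjusted p = 1.15e-20). Rpl13a, a large subunit protein, was at 108 to 144 and 25.4 to 41.0 CPM (1.85 ± 0.06), and Rps21, of the small subunit, at 73.7 to 85.7 and 17.1 to 27.3 CPM (1.84 ± 0.06). The summed level of the list was 3393 to 4172 CPM in the low-Csl set and 2577 to 3419 CPM in the high-Csl set, which overlap. The 8 called lower were Rpl10a (-0.90), Rps28 (-0.74), Fau (-0.54), Rps12 (-0.46), Rpl29 (-0.43), Rps27rt (-0.35), Rpl8 (-0.19) and Rps4x (-0.19). Rps27rt is also a listed retrocopy.

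In the same ranking of genes without overlap, other genes higher in the low-Csl set were the unnamed loci Gm2091 and AA474408 and the proteasome activator gene Psme2. The arginine synthesis gene Ass1, the proton pump gene Atp6v1g1 and the ATP synthase accessory gene Usmg5 were there as well. Gm2091 was at 2.97 to 7.55 CPM in the low-Csl set and 0 to 0.257 CPM, all under the floor, in the high-Csl set. AA474408 was at 16.4 to 57.9 CPM and 3.43 to 13.6 CPM (2.75 ± 0.17). Psme2 was at 6.36 to 9.11 and 1.28 to 3.139 CPM (1.74 ± 0.10), Ass1 at 9.91 to 18.9 and 2.82 to 6.70 CPM (1.59 ± 0.11), and Atp6v1g1 at 10.7 to 17.7 and 2.95 to 5.68 CPM (1.75 ± 0.09). Rpl35 (2.13), Rpl37a (2.24) and Usmg5 (1.95) completed the 12, with Rpl37, Rpl13a, Rps21 and Tuba1c.

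Transcripts of the mitochondrial genome were lower in the low-Csl set. Of 13 coding genes, 12 were called lower (background 10.7%), with a median of -0.33, and the remaining ND6 was at -0.23 (adjusted p = 0.0505). ND4L, a subunit of complex I, was at 1.19 to 11.8 CPM in low-Csl libraries and 21.7 to 42.6 CPM in high-Csl libraries (-2.70 ± 0.23). COX2, a core subunit of cytochrome oxidase, was at 35.7 to 104 and 150 to 279 CPM (-1.50 ± 0.13), and ND3 at 8.37 to 16.2 and 22.4 to 38.5 CPM (-1.24 ± 0.10). These 3 had no overlap, and males were at 15.6 to 88.1 CPM for ND4L, 109 to 546 CPM for COX2 and 20.4 to 83.0 CPM for ND3.

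The 13 genes differed in size of effect. In genome order the log2 differences were -0.25 for ND1, -0.20 for ND2 and -0.23 for COX1, then -1.50 for COX2, -1.71 for ATP8, -0.33 for ATP6, -0.93 for COX3, -1.24 for ND3 and -2.70 for ND4L, then -0.39 for ND4, -0.31 for ND5, -0.23 for ND6 and -0.29 for CYTB. In a comparison added after the data had been seen, annotated nuclear pseudogenes on chromosome 1 shared 99.5% of the 50-base stretches of COX2, 99.5% of ATP6, 99.9% of COX3, 97.99% of ND3, 98.8% of ND4L, 62.2% of ND4 and 28.7% of COX1. Over all annotated transcripts 51.1% of COX1, 8.19% of ND2 and 7.61% of ND5 were shared. No annotated transcript shared a stretch with ATP8, ND1, ND6 or CYTB. ATP8 lies between COX2 and ATP6 in genome order, and nuclear sequence outside annotated transcripts was not compared. The summed level of the 13 genes was 27573 to 38657 CPM in low-Csl libraries, 31461 to 51214 CPM in high-Csl libraries and 27173 to 50895 CPM in males. A nuclear pseudogene on chromosome 13 that shares 4.11% of the stretches of ND5, Gm4076, was instead higher, at 3.93 ± 1.43 CPM in low-Csl and 0.361 ± 0.291 CPM in high-Csl libraries (3.58 ± 0.28); it was named after its values were seen.

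Nuclear genes of energy metabolism were called higher more often than lower, where 10.3% of all genes were higher and 10.7% lower. Of 71 subunits of oxidative phosphorylation, 23 were called higher and 1 lower (median 0.06, with 65 of 71 signs kept when no scaling factor was used), led by the ATP synthase genes Atp5k, at 58.8 ± 5.73 against 29.2 ± 3.26 CPM, and Atp5o, at 125 ± 12.2 against 70.2 ± 5.23 CPM (low-Csl against high-Csl, SD, n = 11 and 18). Of 31 genes of glycolysis and the citrate cycle, 17 were called higher and 3 lower (median 0.11), and with the tissue covariates 7 and 2. The summed level of the 31 genes was 10594 to 12432 CPM in low-Csl libraries and 9349 to 10566 CPM in high-Csl libraries, without overlap, and 8756 to 11897 CPM in males. Pkm, the last kinase of glycolysis, was at 533 to 679 CPM in low-Csl libraries and 356 to 462 CPM in high-Csl libraries (0.54 ± 0.04), and the enolase gene Eno1 at 232 to 303 and 132 to 196 CPM (0.57 ± 0.05). Pgk1, a kinase of the same pathway on the X chromosome, was lower at 9.71 to 15.98 and 25.5 to 33.3 CPM (-1.16 ± 0.05). Of 50 chaperone genes 15 were called higher and 0 lower (the sign of 2 of the 50 turned when no scaling factor was used), led by the mitochondrial chaperonin Hspd1 at 119 ± 7.19 against 84.7 ± 5.44 CPM.

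The olfactory bulb list was lower in the low-Csl set. In whole tissue, fewer cells of a type and less RNA per cell cannot be told apart. Of 24 olfactory genes all were negative and 19 were called lower, with a median of -1.20, against 10.7% called lower and a median of -0.01 for all genes. In APP/E3, APP/E4, HFD and ND females alone 12 of 23, 4 of 24, 7 of 23 and 10 of 24 were called lower. The fits of these subsets called 850 of 14193, 326 of 14197, 865 of 14180 and 395 of 14238 of all genes lower. Omp, a protein of olfactory sensory neurons, was at 0 to 3.92 CPM in low-Csl libraries (median 0.192) and 0.533 to 129 CPM in high-Csl libraries (median 3.19), a log2 difference of -3.92 ± 1.03 (adjusted p = 0.00792). Eomes, a transcription factor of bulb projection neurons, was at 0 to 5.61 and 0.133 to 89.0 CPM (-4.18 ± 0.87). The sets overlapped for every gene of the list, and its summed level was 461 to 935 CPM in low-Csl libraries, 651 to 3779 CPM in high-Csl libraries and 637 to 2006 CPM in males. Omp, Eomes, Tbx21, Trh, Shisa3 and Barhl2 were at 0 in at least 1 low-Csl library. In 6 of the 11 low-Csl libraries the sum was below every high-Csl library.

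Striatal projection neuron genes were also lower, all 27 of them negative and 13 called, with a median of -1.09, against 10.7% of all genes called lower. Strip2 was at 53.1 ± 33.0 against 114 ± 44.3 CPM, the opioid precursor gene Pdyn at 14.7 ± 7.01 against 25.5 ± 11.9 CPM and the adenylyl cyclase gene Adcy5 at 203 ± 97.7 against 346 ± 136 CPM (low-Csl against high-Csl, SD, n = 11 and 18). Drd2, a dopamine receptor, was at 0.891 to 49.98 CPM in low-Csl libraries (median 3.93) and 2.10 to 65.7 CPM in high-Csl libraries (median 28.1) and did not pass (-1.38 ± 0.60, adjusted p = 0.0994). The summed level was 912 to 5189 CPM in the low-Csl set, 1087 to 6594 CPM in the high-Csl set and 954 to 6212 CPM in males, so each set held libraries with little and with much of it. In APP/E3, APP/E4, HFD and ND females alone 4, 0, 9 and 0 of the 27 striatal genes were called lower, while 27, 27, 27 and 26 were negative. Those fits called 850 of 14193, 326 of 14197, 865 of 14180 and 395 of 14238 of all genes lower. The counts of 0 are thus near the share of all genes. The count of 13 depended on single libraries, at 22 without APP/E4 ND F replicate 7, 20 without APP/E3 HFD F replicate 1, 7 without APP/E3 HFD F replicate 5 and 8 without APP/E3 ND F replicate 4, APP/E4 HFD F replicate 1 or APP/E4 HFD F replicate 3.

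Choroid plexus and ependyma genes were called lower in 4 of 18 cases (median -0.87, against 10.7% of all genes), among them the water channel gene Aqp1 at 0.970 ± 1.05 CPM in low-Csl and 5.74 ± 7.68 CPM in high-Csl libraries (SD, n = 11 and 18). In ND females alone the direction turned, with a median of 0.36 and 0 of 11 called, against -1.94 and 4 of 16 in HFD females alone. These fits called 395 of 14238 and 865 of 14180 of all genes lower. The count of 4 was 2 without any 1 of APP/E3 HFD F replicates 2, 3, 7 and 8 and APP/E4 ND F replicate 6. Likewise, without APP/E3 HFD F replicate 6, a high-Csl library with 2458 CPM of the choroid plexus gene Ttr, 2 genes were called and the median was -0.19. With the 3 tissue lists as covariates, 1 olfactory, 1 striatal and 0 choroid plexus genes were called lower, as the covariates hold the same genes, while 145 pseudogenes and 10 mitochondrial genes were called lower and 28 ribosomal protein genes higher. With the same covariates the calls in the interferon response list numbered 1, against 8 without them.

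**Figure D5:**
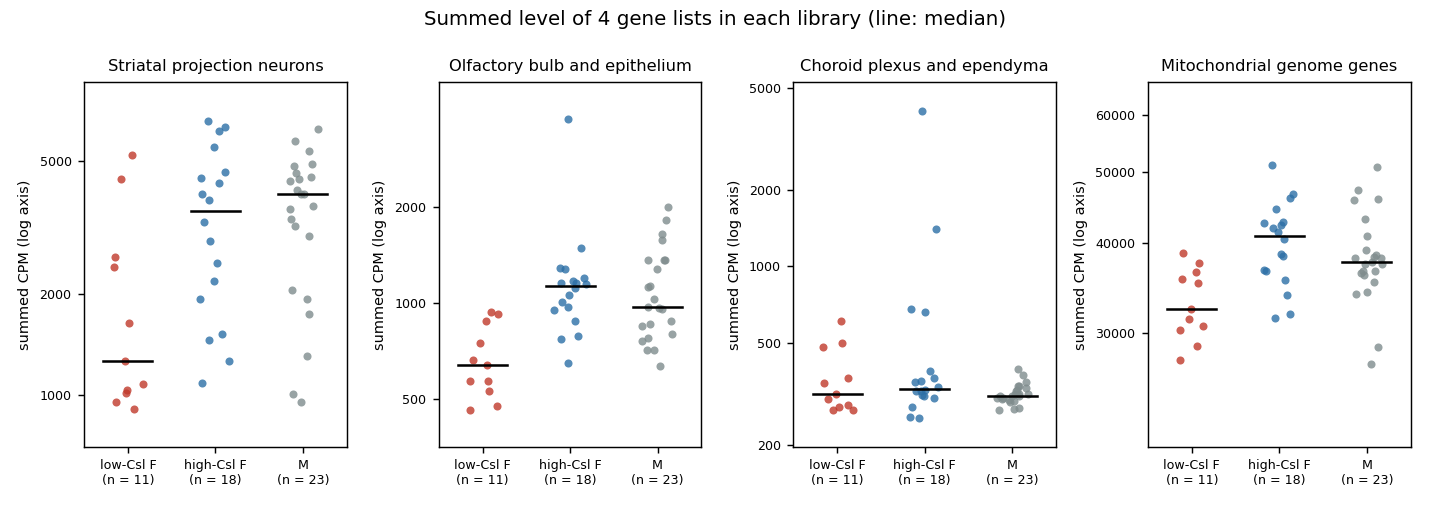
Summed level in CPM on a log axis of the striatal, olfactory, choroid plexus and mitochondrial genome lists, 1 point per library with a line at the median, in 11 low-Csl females, 18 high-Csl females and 23 males. Medians of the low-Csl set are lower in all 4 panels, at 1265, 642, 317 and 32422 CPM against 3543, 1128, 332 and 40883 CPM, and the sets overlap in each.

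Among immune and glial lists, interferon response genes were negative in 38 of 39 cases and called lower in 8 (median -0.25, against 10.7% lower among all genes), among them Trim25 (-0.48), Oas2 (-0.96) and Bst2 (-0.65). In HFD females alone 5 of 38 were called with a median of -0.44, and in ND females alone 0 of 36 with a median of -0.07, and this difference was not tested. Of all genes 865 of 14180 were called lower in HFD females alone and 395 of 14238 in ND females alone. In APP/E4 females alone 1 of 38 interferon response genes was called, near the share of all genes there, 326 of 14197. The count was 15 without APP/E3 ND F replicate 4 and 5 without APP/E3 HFD F replicates 5 or 6 or APP/E4 HFD F replicate 3. Homeostatic microglia genes were called lower in 6 of 20 cases (median -0.16), led by Sall1 (-0.76), Cd33 (-0.40) and the fractalkine receptor gene Cx3cr1 (-0.24), while their adapter gene Tyrobp did not pass (-0.06, adjusted p = 0.666). Among plaque-induced microglial genes 3 were higher, including Fabp5 (0.60), and 4 lower of 30, near the share of all genes. Oligodendrocyte precursor genes were called lower in 5 of 15 cases (median -0.21), led by Cacng4 (-0.79), and myelin genes in 1 of 30, the basic protein gene Mbp being at 780 to 2758 CPM in low-Csl and 461 to 1676.4 CPM in high-Csl libraries (0.10 ± 0.17).

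Among neurons, the calcium-binding protein genes of inhibitory cells went different ways, with Pvalb higher (0.94 ± 0.22) and Calb2 lower (-1.64 ± 0.41), in a list with 3 called higher and 7 lower of 27. Over the alternative fits Pvalb ran from 0.492 to 1.08 and Calb2 from -2.44 to -0.0826, and neither passed in all of them. Cortical layer genes were called higher in 9 and lower in 6 of 40 cases, with the complexin gene Cplx3 of deep layers at 26.0 ± 9.31 against 14.6 ± 2.81 CPM and Mef2c, a transcription factor, at 854 ± 128 against 629 ± 147 CPM (low-Csl against high-Csl, SD, n = 11 and 18). Of 41 immediate early genes 34 were positive, 2 called higher and 1 lower. Among all genes 10.3% were higher and 10.7% lower, and the counts that follow are to be read against these shares. Astrocyte genes gave 1 higher and 4 lower of 24, endothelial genes 0 and 2 of 29, mural and meningeal genes 0 and 3 of 33, and blood genes 0 and 2 of 8 (median -1.26). Of single defining markers, Cldn5 of endothelium was lower (-0.35, adjusted p = 0.0264), and Gfap of astrocytes (0.23), Gad1 of inhibitory neurons (-0.36), Col1a2 of fibroblasts (-0.68), Hbb-b1 of red cells (-1.19), Malat1 of nuclei (0.13) and the early gene Fos (0.44) did not pass. App, whose reads can include the transgene, was slightly higher (0.24 ± 0.06, adjusted p = 0.00394), as was Prnp (0.25 ± 0.06), whose promoter drives the transgenes of this line.

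Mitochondrial ribosomal protein genes were called higher in 15 and lower in 1 of 66 cases (median 0.07, against 10.3% higher and 10.7% lower among all genes), 3 of them without overlap, with Mrpl21 at 0.80, Mrps18c at 0.78 and Mrpl42 at 0.60. Histone genes were called lower in 3 of 19 cases (median -0.22). Hippocampal genes gave 2 higher and 3 lower of 15, thalamic and hypothalamic genes 2 and 3 of 16, and amygdala and claustrum genes 1 and 3 of 13. Complement genes gave 1 higher and 3 lower of 21, with C4a at -0.87, and antigen presentation genes 2 and 6 of 24, with the class II genes H2-Aa at -1.04 and H2-Ab1 at -0.94. Circadian clock genes gave 3 higher and 0 lower of 21, glucocorticoid response genes 2 and 1 of 26, long synaptic genes 6 and 5 of 51, nuclear noncoding RNAs 2 and 1 of 22, and sex-linked genes 0 and 1 of 5.

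Calls among coding genes without shared stretches varied with base composition. Of 1828 such genes with at most 45% G and C, 12.4% were called higher and 4.76% lower in the low-Csl set, and of 2931 with more than 55%, 3.75% higher and 14.5% lower. Of the 492 with the longest transcripts 4.27% were higher and 13.4% lower, and of the 357 with the shortest 5.88% and 7.84%. The part of base composition and of length in the calls was not tested.

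Males took no part in the rule. Over the 240 genes without overlap, the mean of the 23 males lay within the range of the high-Csl females in 231 and within the range of the low-Csl females in 0. Of the 5520 values of these genes in single males, 95.8% lay on the high-Csl side of the midpoint between the female means, and 77.9% did in the male library with the lowest share. The median Gm6788 level of males was 22.3 CPM and that of Tuba1c 2.76 CPM. Some males lay outside both female sets in ND4L, which is among the 240 genes, and in LOC100503946, which is not. In 8 males, picked out after their values were seen, ND4L was at 63.2 to 88.1 CPM and LOC100503946 at 435 to 569 CPM. The other males had 15.6 to 48.1 CPM and 132 to 231 CPM. Females reached 42.6 CPM of ND4L and 212 CPM of LOC100503946 at most.

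The size of the split was then compared between genotypes and between diets. The test of a different split in APP/E4 than in APP/E3 called 0 genes (0%, edgeR; 591 had an unadjusted p under 0.05, and DESeq2 and limma voom called 0). The test of HFD minus ND, added after the data had been seen, called 2 genes (0.0137%), Gm6682 (-0.74 ± 0.13, adjusted p = 0.0183) and the pseudogene LOC100503946 (-0.71 ± 0.12, adjusted p = 0.0183). Gm6682 was at 3.27 to 4.65 CPM in the 7 low-Csl HFD libraries and 43.9 to 55.4 CPM in the 8 high-Csl HFD libraries, and at 5.06 to 9.83 CPM in the 4 low-Csl ND libraries and 47.3 to 56.4 CPM in the 10 high-Csl ND libraries. LOC100503946 was at 105 to 166 CPM in low-Csl and 162 to 203 CPM in high-Csl HFD libraries, and at 194 to 212 CPM in low-Csl and 138 to 182 CPM in high-Csl ND libraries. The count of 2 was 0 without APP/E4 HFD F replicate 1, 5 without APP/E4 ND F replicate 6 and 1 without APP/E3 HFD F replicate 5, APP/E3 ND F replicate 4, APP/E4 HFD F replicate 3 or APP/E4 ND F replicate 7. Csl itself was at 0.0944 to 0.213 CPM in the 7 low-Csl HFD libraries and 0.772 to 1.13 CPM in the 4 low-Csl ND libraries, a difference that is given without a test.

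The study's own comparisons within females were refitted with and without the split as a term. HFD against ND gave 0 calls (0%) with the term and 0 (0%) without it, with 1233 and 752 genes at an unadjusted p under 0.05; with the term DESeq2 called 2 and limma voom 0. Without APP/E3 HFD F replicate 1 or APP/E3 ND F replicate 7 the count was 1. APP/E4 against APP/E3 gave 782 calls (5.36%) with the term and 414 (2.84%) without it, and 410 genes were called in both. The count with the term depended on single libraries, at 1260 without APP/E3 ND F replicate 4 and at 478, 502 and 517 without APP/E4 ND F replicate 7, APP/E4 ND F replicate 5 and APP/E3 ND F replicate 3.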

How the data were processed

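RNA of the frontal cortex was sequenced from 52 mice, 1 library per animal. The deposited counts are whole reads per gene made by the authors, with Subread and featureCounts on mm9, and limma and edgeR 3.14.0, named in the submitters' processing notes. For strand setting and read length, nothing was given in the sources used. The deposited log2 coefficients and p-values of the authors' diet comparison were not used. Every value column of the count table was assigned to a library (0 others). Over all 146 pairs of libraries within a group the lowest chi-square per gene was 2.95, so none was counted as a duplicate.

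The members and lists were chosen with earlier results of these data known. CPM used total counts, and values are means ± SD. Differences, as log2 with SE, came from edgeR 4.0.16 (R 4.3.3) with TMM scaling, filterByExpr (1106 of 15692 genes removed), a robust quasi-likelihood fit of 4 genotype and diet means plus the split, and Benjamini-Hochberg adjustment over all genes, with calls at adjusted p under 0.05. Csl, Aldoart2 and Rps10 were left out of every count, except that Rps10 was not excluded as a parent in the 181 pairs with a copy called lower. The scripts were checked on simulated data. Alternatives were other scalings, no filter, DESeq2 1.42.0, limma voom 3.58.1, additive terms, all 52 libraries, tissue lists as covariates, subsets and leaving out each library.

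Named genes were the listed retrocopies and parents, the 12 largest differences each way without overlap and with 5 CPM in the higher set, the 3 called genes of smallest p in each of 33 lists, and defining tissue markers; any other gene named was chosen after its values were seen. Sequences and shared 50-base stretches came from GENCODE M21 transcripts on GRCm38, gene types from RefSeq (15448 of 15692 gene identifiers matched), and pairs from blastn 2.17.0. The counts rest on another build, and the 2 were joined by gene, not by coordinate.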

Additional observations from a re-analysis of the deposited data

Results flagged for a closer look

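Dixon's criterion was applied to sets of 5 libraries of 1 genotype, diet and Csl level, the low-Csl APP/E3 HFD set and the high-Csl APP/E3 ND, APP/E4 HFD and APP/E4 ND sets, since the other female sets hold 2 or 3 libraries. In 176 tests over genes, summed lists and sets 16 single values stood apart, and chance gives about 1 in 20. In the low-Csl set these were Gm6682 at 3.27 CPM in APP/E3 HFD F replicate 1, Omp at 3.92 CPM in APP/E3 HFD F replicate 2 and Slc17a7 at 1353 CPM in APP/E3 HFD F replicate 3. In the high-Csl set APP/E4 HFD F replicate 4 held Omp at 129 CPM, a summed olfactory level of 3779 CPM, Cldn5 at 46.0 CPM and Gm15710 at 4.61 CPM. APP/E4 HFD F replicate 2 held Drd2 at 65.7 CPM and a summed striatal level of 6120 CPM. Among high-Csl ND libraries, AA474408 was at 13.6 CPM in APP/E3 ND F replicate 1 and 5.86 CPM in APP/E4 ND F replicate 2. Mbp was at 461 CPM in APP/E3 ND F replicate 3, and Hbb-b1 at 65.2 CPM and Gm2091 at 0.238 CPM, under the floor, in APP/E3 ND F replicate 5. Gm11942 was at 11.1 CPM in APP/E4 ND F replicate 1 and Gm6788 at 23.8 CPM in APP/E4 ND F replicate 3.

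The split differed between HFD and ND females in 2 genes, by -0.74 on the log2 scale for Gm6682 and by -0.71 for LOC100503946.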

How the results depend on the processing

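The 3070 genes called between low-Csl and high-Csl females became 959 with tissue covariates, 1724 and 651 in APP/E3 and APP/E4 females alone, 1662 and 771 in HFD and ND females alone, and 2492 to 3498 with 1 library left out. Subsets hold fewer libraries. The HFD against ND count of 0 was 2 with DESeq2 and 0 to 1 with 1 library left out. The APP/E4 against APP/E3 count of 782 was 1204 with tissue covariates, 53 and 43 in HFD and ND females alone, 414 without the split as a term, and 478 to 1260 with 1 library left out. The difference of the split between genotypes, 0 calls, was 1 in HFD females alone. That between diets, 2 calls, was 4 with DESeq2, 1 with limma voom, 0 in APP/E3 and 0 in APP/E4 females alone, and 0 to 5 with 1 library left out. The cause of these moves was not tested. These signs turned. Rplp1 was at -0.00327 with no scaling factor, -0.0316 with tissue covariates, -0.0645 in APP/E3 females, -0.0577 in HFD females and -0.0270 to 0.0330 with 1 library left out. With tissue covariates Drd2 was 0.395, Ttr 1.29, Slc17a7 -0.179, Gad1 0.522, Ppp1r2 0.0216, Hist1h2bc 0.0384 and Clic6 0.145. Ttr was 0.9998 without the library of highest Ttr, 0.777 in APP/E4 females, 2.40 in ND females and -2.15 to 0.9998 with 1 library left out. Mbp was -0.101 in APP/E3 females, -0.235 in HFD females and -0.0716 to 0.158 with 1 library left out, and Gfap -0.128 in HFD females. In APP/E4 females Tyrobp was 0.00582 and Rpl13 0.0469, and in ND females Slc17a7 was -0.0894, Malat1 -0.0605, Dynll1 -0.0358 and Rpl13 0.0497. No paired analysis was possible because replicate numbers follow the deposit order and pair no libraries. Under the floor of 3 reads, levels of the deepest copies in single low-Csl libraries are not told apart from 0.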
